A study of Mus musculus with 24 samples.

Results

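A set of 10 genes that mark T cells and cytotoxic lymphocytes was followed in RNA from mouse intrahepatic cholangiocytes, the epithelial cells that line the bile ducts inside the liver. They were chosen by name, not by their values: Cd3d and Cd3e (T cell receptor complex), Cd4 and Cd8a (co-receptors), Gzma, Gzmb, Prf1 and Nkg7 (cytotoxic granules), Ifng (a cytokine) and Tbx21 (a transcription factor). They are 10 of the 49315 genes in the count tables, and all 10 passed the low-count filter in the fits of the 12 male, the 12 female and all 24 libraries. On GRCm38 the genes lie at chr9:44981786-44987339 (Cd3d, + strand), chr9:44998740-45009627 (Cd3e, - strand), chr6:124864692-124888221 (Cd4, - strand), chr6:71373427-71379173 (Cd8a, + strand), chr13:113093825-113100979 (Gzma, - strand), chr14:56258856-56262260 (Gzmb, - strand), chr10:61297836-61304263 (Prf1, + strand), chr7:43437073-43438249 (Nkg7, + strand), chr10:118441047-118445892 (Ifng, + strand) and chr11:97098071-97115331 (Tbx21, - strand). Counts were taken per gene, so each value covers the whole gene.

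The 24 libraries form 8 groups of 3, each named by its title: for each sex, wild-type (WT) and dnTGFB mice, without treatment or with secretin. The dnTGFB mice carry a dominant-negative type II receptor for TGF-beta and are used to model primary biliary cholangitis, in which T cells attack the bile ducts. Secretin, a gut hormone that makes bile duct cells secrete bicarbonate, was infused from implanted pumps at 4 µg per kg per day for 8 weeks. Untreated WT mice were 32 weeks old and treated mice 40 weeks old, so secretin and age cannot be told apart in WT mice, and no age of untreated dnTGFB mice was used here. For each group, 6 to 8 mice were pooled, and their cells captured with an antibody on magnetic beads. Each pool is described as sequenced 3 times, so no p-value measures the spread between mice. In groups with libraries that stand apart (below), the spread is wider than between repeat libraries of 1 pool. In 12 libraries the genotype label contradicts the title: WT secretin libraries are labelled with the transgene and untreated dnTGFB libraries as wild-type. The titles, which the series' design text matches, were followed.

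Several libraries stand apart, and results that rest on them are given with and without them. Total counts were 15225605 to 30203330 in 11 male libraries, 1429218 in male dnTGFB library 3, and 6483182 to 104003184 in the female libraries. Male WT library 1 was closer to male dnTGFB library 2 (chi-square per gene 7.23, where 1 is sampling noise) than to its own group (39.96), and male dnTGFB library 3 was 78.54 from the nearest library of its group. Female WT library 2 and female dnTGFB secretin library 1 differed by 1.17 per gene, and female WT secretin library 1 and female dnTGFB secretin library 3 by 1.45, close to the 1.09 to 1.44 seen between repeat male libraries of a group. The Y-linked gene Ddx3y was 55.1 to 98.5 CPM (read counts scaled to a common library size, with edgeR's TMM factors) in 4 libraries labelled female (WT secretin 2 and 3, dnTGFB 1 and 2), which goes against their label, since it was 1.25 to 6.4 in the other 8 and 60.5 to 121 in males. The summed heart muscle markers were 55300 to 69100 CPM in these 4 and 323 to 2410 in the other 8, with no marker at 0. Among male libraries their sum was 11300 CPM in dnTGFB library 3 and 31.6 to 854 in the others. Xist, transcribed from the inactive X chromosome, was 30.1 to 37.4 in the 3 male WT secretin libraries and 7.96 and 10.1 in male dnTGFB libraries 1 and 2, against 0.166 to 1.45 in the other male libraries. It was 19.4 to 87.9 in the 4 libraries labelled female with high Ddx3y, and 39.2 to 312 in the other 8. Those 4 thus carried both transcripts. The bile duct genes Krt19 and Epcam were detected in every library, and so was the hepatocyte gene Alb.

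T cells recognise antigen through a receptor whose signals are passed on by the CD3 chains, with CD4 on helper cells and CD8 on killer cells as co-receptors. Killer T cells and natural killer (NK) cells store perforin, the pore-forming product of Prf1, together with granzymes, proteases that enter the target cell and start its death. T-bet, the product of Tbx21, drives the type 1 programme that includes interferon gamma. In dnTGFB mice the transgene is driven by a Cd4 promoter that is active in CD4 and CD8 T cells, so the cells that carry it are not the cholangiocytes that were captured. The counts do not separate the transgene from endogenous transcripts.

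Promoters of granule genes are shown because they share a motif and 2 of the genes, Gzma and Gzmb, had the widest ranges of level. RefSeq promoters (GRCm38.p6, 250 bases before to 50 after the start site) were found for 9 of the 10 genes, all but Cd4. The core letters TGTGGT, bound by Runx factors, were searched on both strands with 3 other motifs, and the motif shown was chosen after the matches were seen. They occur in the promoters of Gzma, Gzmb, Prf1 and Nkg7 but in none of the other 5, and in 16.8% of all 32851 promoters. The match starts 50 bases before the start site in Gzma, 93 and 34 in Gzmb, 130 in Prf1 and 83 in Nkg7. For Gzma, Gzmb and Prf1, whose windows lie outside the counted gene models, the 250 bases before the RefSeq start site are printed 5′ to 3′ along the gene, with the matches on either strand in capitals.
Gzma, chr13:113100982-113101231, - strand: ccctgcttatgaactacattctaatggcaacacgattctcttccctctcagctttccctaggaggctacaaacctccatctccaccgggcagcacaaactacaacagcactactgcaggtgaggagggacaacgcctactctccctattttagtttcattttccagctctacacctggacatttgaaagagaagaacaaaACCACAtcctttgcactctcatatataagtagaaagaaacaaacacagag
Gzmb, chr14:56262335-56262584, - strand: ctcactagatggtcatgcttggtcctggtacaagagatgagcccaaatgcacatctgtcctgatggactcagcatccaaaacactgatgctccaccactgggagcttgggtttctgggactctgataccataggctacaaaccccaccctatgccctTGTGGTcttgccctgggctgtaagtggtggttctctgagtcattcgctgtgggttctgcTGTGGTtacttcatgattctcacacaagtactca
Prf1, chr10:61297586-61297835, + strand: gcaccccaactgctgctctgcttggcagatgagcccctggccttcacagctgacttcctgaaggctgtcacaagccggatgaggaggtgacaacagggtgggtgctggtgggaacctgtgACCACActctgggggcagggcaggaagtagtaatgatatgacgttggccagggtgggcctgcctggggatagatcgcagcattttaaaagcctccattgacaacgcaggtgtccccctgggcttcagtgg
Of the other motifs, AGGAAGT (ETS) was in the promoters of Cd3d, Cd3e, Prf1 and Tbx21 and in 9.35% of all promoters. TGACTCA (AP-1) was in that of Gzmb and 5.2% of all, and AGGTGTGA (T-box) in that of Nkg7 and 1.28% of all. A match is a stretch of letters and not a shown binding site.

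Levels are TMM-scaled CPM, with the scaling fitted within each sex. Per exon length, the order of median levels over the 24 libraries was Gzmb (4.39 RPKM), Gzma (3.26), Nkg7 (2.87), Ifng (1.23), Cd3d (0.8), Tbx21 (0.61), Cd8a (0.607), Cd4 (0.478), Prf1 (0.415) and Cd3e (0.28). In male dnTGFB library 3 the 10 genes held 12 counts together, and 3 counts, the limit that a count of 0 allows, equal 1.76 CPM. No pair of neighbouring groups in the order of group means was free of overlap for any gene, 0 of 30 pairs in each sex. Groups further apart in that order could separate. In male dnTGFB secretin 6 of the 10 genes lay below WT secretin without overlap (31.6% of all genes). In bulk RNA, fewer cells of a type and less RNA per cell cannot be told apart.

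**Figure D1:**
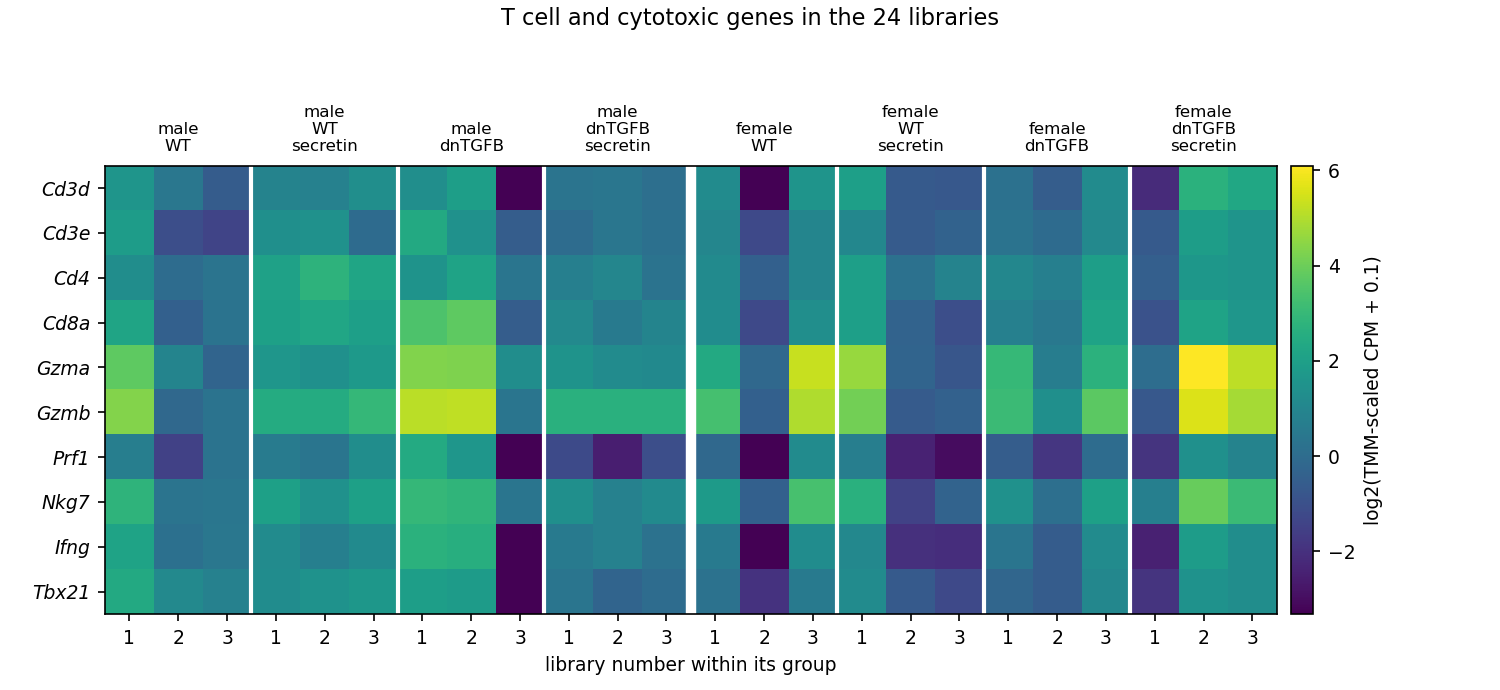
Level of each of the 10 genes (rows) in each of the 24 libraries (columns, numbered within the group), as log2 of TMM-scaled CPM plus 0.1; colour runs from dark (low) to yellow (high). In every row male WT library 1 is brighter than WT libraries 2 and 3, male dnTGFB library 3 is darker than dnTGFB libraries 1 and 2, and in females the brightest granule-gene cells lie in WT library 3, WT secretin library 1 and dnTGFB secretin libraries 2 and 3.

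In male mice the CD3 chains, which carry the signal of the T cell receptor, were low and uneven. Cd3d was at 2.42, 3.8 and 0 CPM in dnTGFB libraries 1 to 3, against 2.91, 1.23 and 0.564 in the WT libraries, while with secretin it was at 1.78, 1.67 and 2.41 for WT and 1.13, 1.19 and 0.979 for dnTGFB. Cd3e was at 5.19, 2.59 and 0.587 CPM in dnTGFB libraries 1 to 3, against 3.57, 0.383 and 0.282 in the WT libraries, while with secretin it was at 2.46, 2.6 and 0.892 for WT and 0.895, 1.19 and 1.01 for dnTGFB. The highest values of both genes were those of 1 dnTGFB library and of WT library 1, and the WT and dnTGFB groups overlapped. Cd3e differed between dnTGFB and WT by a log2 fold change of 1.16 ± 0.89 (SE; adjusted p = 0.373, edgeR's quasi-likelihood test, Benjamini-Hochberg adjusted over all genes tested, as for every adjusted p below) and Cd3d by 0.66 ± 0.67 (adjusted p = 0.51). Reads of Cd3e cannot be told apart from those of the overlapping gene models Gm48719 and Gm48720, since no source used here gives the strand setting of the counting.

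Cd4, the co-receptor of helper T cells, which some macrophages and dendritic cells also express, was higher in secretin-treated than untreated male WT mice and lower in dnTGFB secretin than in WT secretin. It was at 2.77, 4.35 and 1.17 CPM in dnTGFB libraries 1 to 3, against 2.35, 0.894 and 1.13 in the WT libraries, while with secretin it was at 4.05, 6.77 and 4.51 for WT and 1.56, 1.88 and 1.11 for dnTGFB. The 3 WT secretin libraries lay above every WT and every dnTGFB secretin library. The log2 fold change was 1.81 ± 0.45 for WT secretin against WT (adjusted p = 0.0391) and -1.75 ± 0.45 for dnTGFB secretin against WT secretin (adjusted p = 0.0273). These comparisons share the WT secretin libraries, which also carried Xist. The macrophage list was 600 to 624 CPM in WT secretin, 318 to 431 in WT and 557 to 585 in dnTGFB secretin, with no list gene at 0. Of 6 dendritic cell markers, 3 (Flt3, Xcr1 and Siglech) moved as Cd4 did: they were higher in WT secretin than in WT and lower in dnTGFB secretin than in WT secretin, with list medians of 1.38 and -1.51, and were called lower in the interaction. The summed level of all 6 dendritic cell markers went the other way. It was 382 to 397 CPM in WT secretin, below the 409 to 456 in WT and the 498 to 520 in dnTGFB secretin. No marker was at 0. The part of these cell types in the Cd4 result was not tested. The first call held only without WT library 1 and was lost without any of the other 5 libraries compared (adjusted p 0.0198 to 0.164). The second was lost without any 1 of its 6 libraries (adjusted p 0.0592 to 0.128).

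Cd8a, the co-receptor of killer T cells, had its highest male levels in dnTGFB libraries 1 and 2. It was at 11.1, 13.4 and 0.587 CPM in dnTGFB libraries 1 to 3, against 4.41, 0.639 and 1.09 in the WT libraries, while with secretin it was at 3.97, 4.66 and 3.88 for WT and 2.09, 1.37 and 1.8 for dnTGFB. The third dnTGFB value is 1 count, so this group spans the range of all the others. Cd8a fell by 2.38 ± 0.76 on the log2 scale from dnTGFB to dnTGFB secretin (adjusted p = 0.0451), while dnTGFB against WT gave 2.17 ± 0.76 (adjusted p = 0.0728). The first call held only without dnTGFB library 3, and was lost without any of the other 5 libraries compared (adjusted p 0.00393 to 0.146). Within a library the ratio of Cd8a to Cd4 counts does not depend on scaling: it was 96 to 24 counts (4.0) and 145 to 47 (3.09) in dnTGFB libraries 1 and 2, and 0.5 to 1.88 in the other 10 male libraries. The 0.5 is that of dnTGFB library 3, with 1 to 2 counts. Cd8b1, which encodes the other CD8 chain, did not set dnTGFB libraries 1 and 2 apart from WT secretin. It was at 1.15, 2.69 and 0 CPM in dnTGFB and 2.66, 1.62 and 1.21 in WT secretin. In WT it was at 0.985, 0.0852 and 0.483, and in dnTGFB secretin at 0.232, 0.289 and 0.253.

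**Figure D2:**
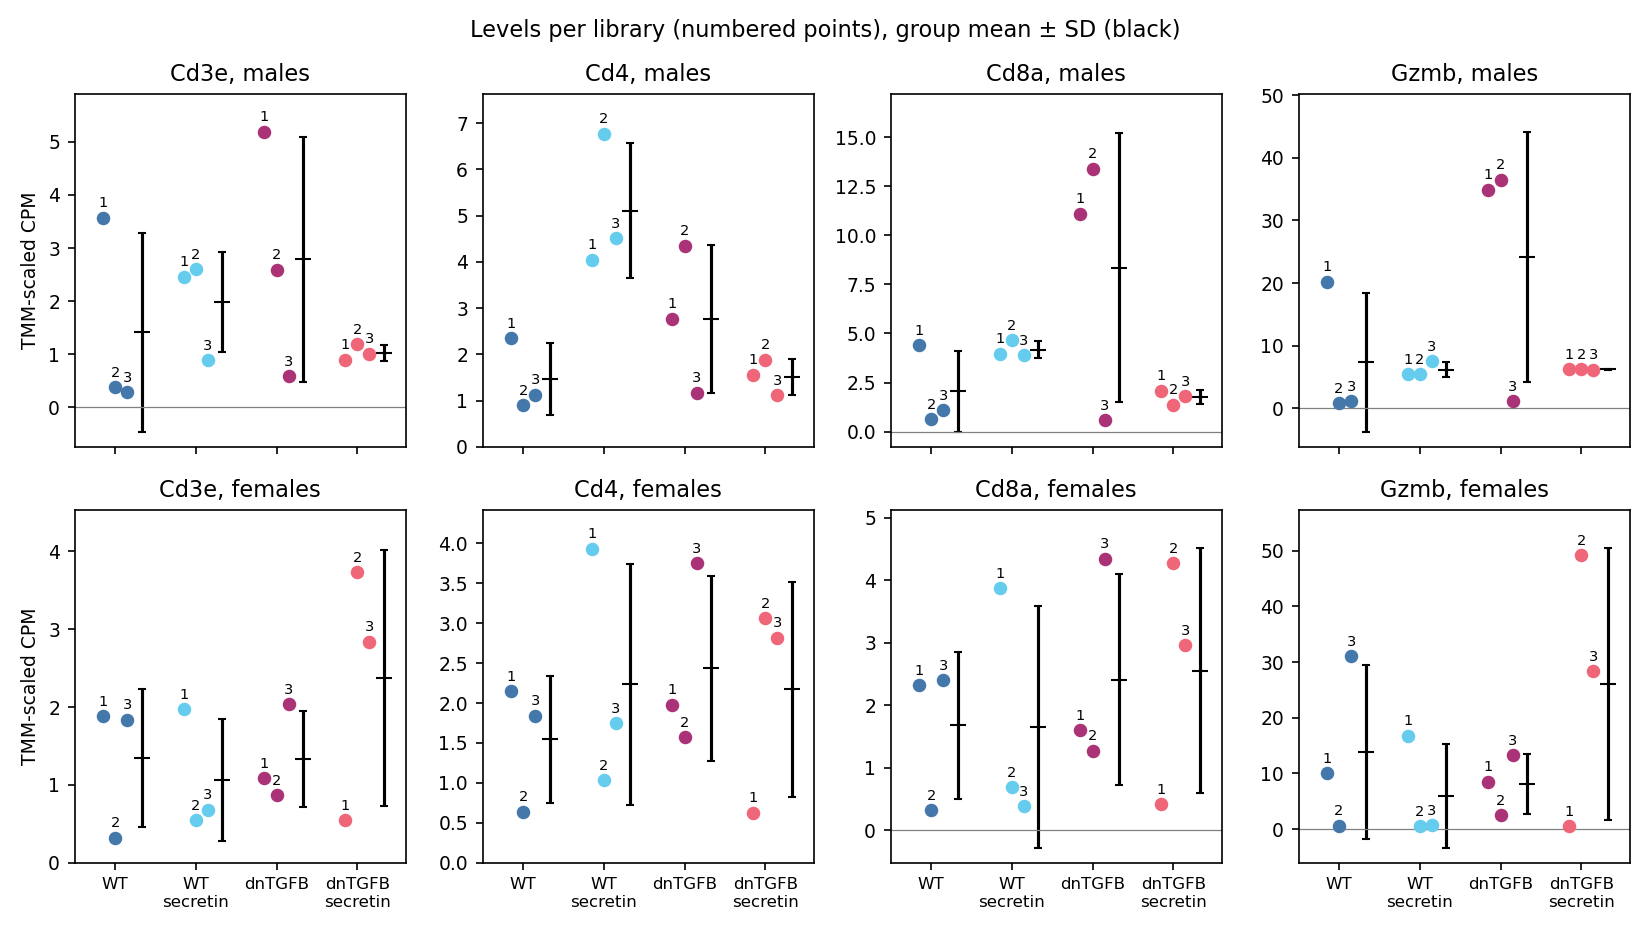
TMM-scaled CPM of Cd3e, Cd4, Cd8a and Gzmb in male (top) and female (bottom) libraries; each point is 1 library with its number, and black bars give the group mean ± SD (n = 3). In males, dnTGFB libraries 1 and 2 stand high for Cd8a (11.1 and 13.4) and Gzmb (34.9 and 36.5) while library 3 is near 0, and WT secretin is highest for Cd4.

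The granzymes had the largest spread. Gzmb was at 34.9, 36.5 and 1.17 CPM in male dnTGFB libraries 1 to 3, against 20.2, 0.809 and 1.09 in the WT libraries, while with secretin it was at 5.43, 5.45 and 7.56 for WT and 6.2, 6.26 and 6.19 for dnTGFB. Gzma was at 19.6, 19.5 and 2.35 CPM in dnTGFB libraries 1 to 3, against 13.6, 1.79 and 0.725 in the WT libraries, while with secretin it was at 2.97, 2.55 and 3.36 for WT and 2.75, 2.24 and 2.12 for dnTGFB. Both secretin groups were even, whereas WT held 1 high library and dnTGFB 1 low one. For dnTGFB against WT the log2 fold change was 1.80 ± 1.07 for Gzmb (adjusted p = 0.256) and 1.46 ± 0.88 for Gzma (adjusted p = 0.26). Between the secretin groups Gzmb differed by 0.02 ± 1.05 (adjusted p = 0.994), an error that leaves room for a difference either way. Gzma differed by -2.63 ± 0.91 between dnTGFB secretin and dnTGFB (adjusted p = 0.0592).

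Prf1, which encodes perforin, fell in dnTGFB mice given secretin. It was at 5.31, 2.96 and 0 CPM in male dnTGFB libraries 1 to 3, against 1.55, 0.256 and 1.09 in the WT libraries, while with secretin it was at 1.43, 1.18 and 2.36 for WT and 0.332, 0.0723 and 0.379 for dnTGFB. The dnTGFB secretin libraries lay below all WT secretin libraries and below dnTGFB libraries 1 and 2. Against dnTGFB the log2 fold change was -3.56 ± 0.89 (adjusted p = 0.0202), and against WT secretin it was -2.62 ± 0.86 (adjusted p = 0.0697). The call held without dnTGFB library 2 or 3 and was lost without any of the other 4 libraries compared (adjusted p 0.000462 to 0.0789). Nkg7, a membrane protein of cytotoxic granules, was at 7.73, 7.13 and 1.17 CPM in dnTGFB libraries 1 to 3, against 6.99, 1.15 and 1.21 in the WT libraries, while with secretin it was at 4.01, 2.65 and 3.99 for WT and 2.49, 1.66 and 2.18 for dnTGFB. No Nkg7 difference passed the test, the nearest being dnTGFB secretin against dnTGFB (-1.48 ± 0.70, adjusted p = 0.146).

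The granule genes were high relative to the CD3 chains in the same 2 libraries. The ratio of summed Gzma, Gzmb, Prf1 and Nkg7 counts to summed Cd3d and Cd3e counts was 8.86 and 10.3 in male dnTGFB libraries 1 and 2. The WT libraries had ratios of 6.54, 2.47 and 4.86, the WT secretin libraries 3.26, 2.77 and 5.22, and the dnTGFB secretin libraries 5.82, 4.29 and 5.46. The ratio is not given for male dnTGFB library 3 and female WT library 2, which hold too few CD3 counts.

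**Figure D3:**
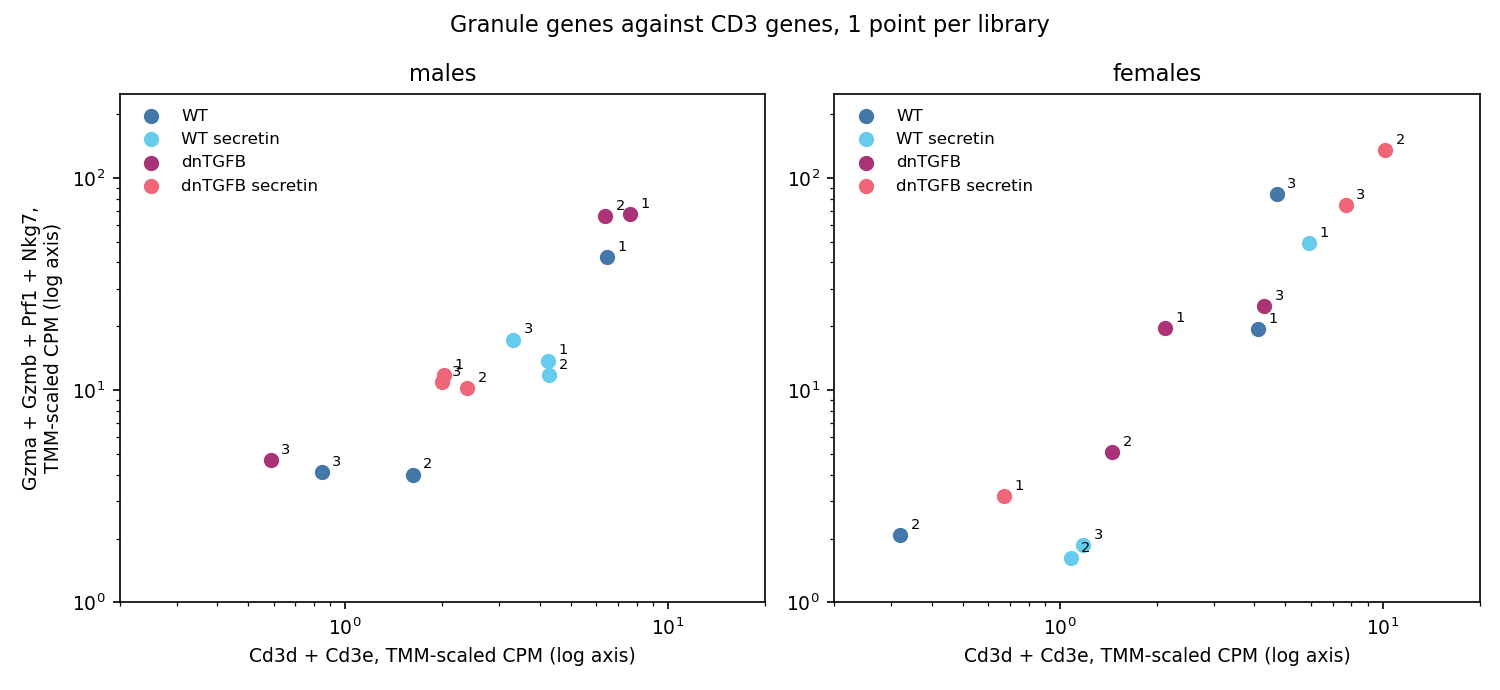
Summed level of Gzma, Gzmb, Prf1 and Nkg7 (vertical) against that of Cd3d and Cd3e (horizontal), both in TMM-scaled CPM on log axes; each point is 1 library with its number, coloured by group, males left and females right. Male dnTGFB libraries 1 and 2 and WT library 1 lie at the upper right of the male panel.

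Ifng, the cytokine that activates macrophages and raises antigen presentation, was at 6.35, 5.84 and 0 CPM in male dnTGFB libraries 1 to 3, against 4.27, 1.02 and 1.25 in the WT libraries, while with secretin it was at 2.22, 1.57 and 2.15 for WT and 1.39, 1.66 and 1.07 for dnTGFB. Tbx21 was at 3.81, 3.52 and 0 CPM in dnTGFB libraries 1 to 3, against 5.16, 2.09 and 1.65 in the WT libraries, while with secretin it was at 2.3, 2.7 and 3.1 for WT and 1.16, 0.723 and 0.916 for dnTGFB. Ifng, like the granzymes, was highest in dnTGFB libraries 1 and 2 and WT library 1, whereas Tbx21 was highest in WT library 1, and the WT and dnTGFB groups overlapped for both. For dnTGFB against WT the log2 fold change was 1.09 ± 0.71 for Ifng (adjusted p = 0.297) and -0.04 ± 0.61 for Tbx21 (adjusted p = 0.974). Tbx21 was below every WT secretin library in all dnTGFB secretin libraries, with a log2 fold change of -1.52 ± 0.60 (adjusted p = 0.125). Reads of Ifng may include those of the overlapping gene model Gm49751.

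Over the 10 genes, no male difference between dnTGFB and WT passed the test, where 8.55% of the 18777 genes tested were called higher and 8.46% lower. At an unadjusted p under 0.05 there were 2 genes, Cd4 and Cd8a, and DESeq2 called 1, Cd8a (13.6% of all genes higher). The median log2 fold change of the 10 genes was 1.13, and that of all genes 0.01. For dnTGFB secretin against WT secretin 1 gene, Cd4, was called lower (7.19% of all genes) and none higher (5.75%), and 6 genes, Cd3d, Cd4, Cd8a, Prf1, Nkg7 and Tbx21, were lower without overlap between the libraries (31.6% of all genes). The median was -0.88 against -0.01 for all genes. For WT secretin against WT 1 gene, Cd4, was called higher (3.55% of all genes) and none lower (2.67%). Cd4 was the only one of the 10 without overlap (22.0% of all genes were higher without overlap); the median was 0.26 against 0. For dnTGFB secretin against dnTGFB 2 genes, Cd8a and Prf1, were called lower (12.4% of all genes) and none higher (10.1%), with a median of -1.68 against -0.05.

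The counts moved with the fit. DESeq2 called 3 of the 10 lower between the secretin groups (13.3% of all genes) and 4 lower between dnTGFB secretin and dnTGFB (18.9%). A fit of only the 6 libraries compared called 7 lower between the secretin groups (30%) but 0 between dnTGFB secretin and dnTGFB (1.19%). For the latter, 1 gene was called with library totals in place of TMM scaling (4.46%), without a low-count filter (5.01%) and with a replicate block (7.65%). Under the block the Cd4 call between WT secretin and WT was lost (2.27% of all genes higher).

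The secretin difference itself differed between genotypes for Cd4 and Prf1. The interaction, the change with secretin in dnTGFB minus that in WT, was -2.83 ± 0.65 for Cd4 (adjusted p = 0.0181) and -4.33 ± 1.18 for Prf1 (adjusted p = 0.0335), 2 genes called lower where 7.51% of all genes were, and none higher (8.1%). It was -3.41 ± 1.05 for Cd8a, just outside the threshold (adjusted p = 0.0504). All 10 estimates were below 0, with a median of -1.78 against -0.07 for all genes. Refits without 1 library called Cd4 in 7 of 12 cases and Prf1 in 3 of 12.

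Without male WT library 1 and dnTGFB library 3, which were left out because their whole profile differs from that of their group, all 10 genes were higher in dnTGFB than in WT, where 22.3% of all genes were called higher. The log2 fold change was 5.22 ± 0.24 for Gzmb (adjusted p = 8.26e-15), 3.96 ± 0.32 for Gzma, 3.81 ± 0.33 for Cd8a and 3.51 ± 0.58 for Cd3e. It was 2.64 for Nkg7, 2.59 for Prf1, 2.41 for Ifng, 1.82 for Cd4, 1.80 for Cd3d and 0.97 for Tbx21 (adjusted p = 0.0369), with a median of 2.62. Leaving out WT library 1 alone gave 6 calls (10.9% of all genes higher), and dnTGFB library 3 alone 4 (14.7%). Each of these groups then holds 2 libraries.

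The other male comparisons changed in the same refit. Between dnTGFB secretin and dnTGFB all 10 genes were lower (23.5% of all genes), for example Prf1 by -3.92 ± 0.59 and Gzma by -3.04 ± 0.25. For WT secretin against WT 7 were higher (19.9% of all genes), with Gzmb at 2.68 ± 0.23 and Gzma at 1.24 ± 0.31, both of which had been below 0 with all libraries. Between the secretin groups 5 were lower (25.7% of all genes): Cd4, Cd8a, Prf1, Nkg7 and Tbx21. All 10 interaction estimates were called lower (23.8% of all genes). The 4 libraries of WT and dnTGFB that remain differ in mitochondrial counts, 9.73% and 9.75% of the total in WT against 55.1% and 55.0% in dnTGFB; WT library 1 had 42.8%. Hepatocyte and neutrophil RNA moved the same way: Alb was 1570 and 1560 CPM in WT libraries 2 and 3, 13300 and 12800 in dnTGFB libraries 1 and 2, and 8040 in WT library 1. The refit called 7 of 7 hepatocyte and 5 of 6 neutrophil markers higher in dnTGFB. The part of these differences in the result was not tested.

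**Figure D4:**
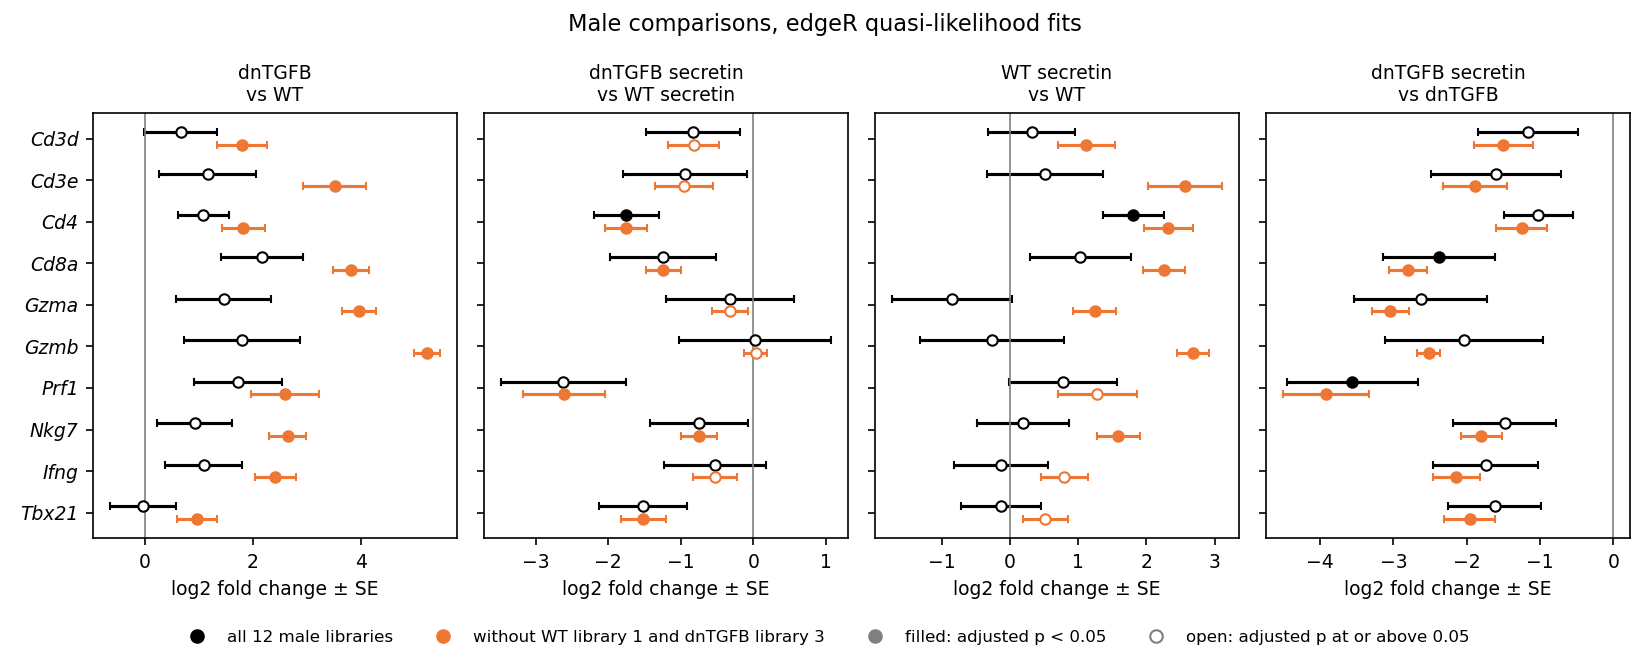
Log2 fold change ± SE of each gene in the 4 male comparisons, with all 12 libraries (black) and without WT library 1 and dnTGFB library 3 (orange); filled points have an adjusted p under 0.05. The 10 genes shift to the right for dnTGFB against WT, from a median of 1.13 to 2.62, and little for dnTGFB secretin against WT secretin, from -0.88 to -0.89.

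Other T cell and NK cell genes were followed in lists. In the T cell receptor list, 4 of 20 genes were higher and 1 lower in male dnTGFB than in WT. The leading 2 were Bcl11b, a T cell transcription factor (3.21 ± 0.60, adjusted p = 0.00673), and Thy1, a surface protein of T cells and neurons (3.12 ± 0.60, adjusted p = 0.0075). Thy1 was 18.9, 11.5 and 14.4 CPM in WT and 49.5, 51.1 and 297 in dnTGFB, and Bcl11b was 48.7 in dnTGFB library 3 against 9.35 and 8.99 in libraries 1 and 2. Library 3 thus had the highest Thy1 and Bcl11b while Cd3d was at 0. All 6 neuron markers were also higher in dnTGFB, their sum being 565 to 4110 CPM against 99.2 to 124 in WT, with no marker at 0; their part in the Thy1 and Bcl11b result was not tested.

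The remaining lists held few calls for dnTGFB against WT, where 8.55% of all genes were called higher and 8.46% lower, and counts near those shares say nothing of a list. In the NK list 1 of 14 was higher (Eomes, a T-box factor, 2.05 ± 0.54), in the type 1 list 1 of 18 (Il12rb2, an interleukin-12 receptor chain, 4.80 ± 0.95), and in the inhibitory receptor list 1 of 8 (Tox, 1.43 ± 0.43). The granule list, which leaves out the 10 genes, had 0 of 13 and the helper list 0 of 11. In the homing list 2 of 10 were lower, among them the chemokine receptor Ccr7 (-2.08 ± 0.43). B cell and platelet markers were lower in 6 of 6 genes each, at 7.64 to 33.6 CPM against 177 to 326 for B cells and 15.3 to 43.7 against 171 to 295 for platelets. Bile duct markers were lower in 7 of 8, with Krt19 at -1.58 ± 0.28 and Epcam at -1.78 ± 0.24. B cells also express Ccr7, and the part of the B cell difference in its result was not tested.

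Between the male secretin groups more list genes were called lower than higher in dnTGFB, where 7.19% of all genes were lower and 5.75% higher. The T cell receptor list had 5 of 20 lower, led by the T cell surface proteins Cd6 (-4.04 ± 0.69, adjusted p = 0.00382) and Cd5 (-3.20 ± 0.79). Cd6 was 2.34, 3.58 and 1.99 CPM in WT secretin and 0.166, 0.0723 and 0.221 in dnTGFB secretin. Lower genes were 3 of 13 in the granule list (Lyst -1.35 ± 0.24, Gzmk -3.23 ± 0.87), 3 of 14 in the NK list (Eomes -2.12 ± 0.47, Klrd1 -2.25 ± 0.62), 5 of 10 in the homing list (among them Itgae -2.40 ± 0.49) and 2 of 11 in the helper list (Cd40lg -3.35 ± 0.85, Il7r -2.44 ± 0.72). In the inhibitory list 2 of 8 were lower (Pdcd1, which encodes PD-1, -5.03 ± 1.02, and Havcr2 -2.15 ± 0.44) and 1 higher.

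The type 1 list was split in that comparison, with 3 of 18 lower and 3 higher. The chemokine Cxcl10, made by many cell types in answer to interferon gamma, was higher by 3.89 ± 0.52, at 1650, 1620 and 1600 CPM against 110, 105 and 114. Its receptor on T cells, Cxcr3, had a log2 fold change of -3.68 ± 0.61, at 0.497, 0.217 and 0.347 CPM against 4.44, 4.91 and 4.51. Ligand and receptor thus lay in opposite directions in every library of both groups.

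Ptprc, which encodes the pan-leukocyte protein CD45, was lower in dnTGFB secretin too (-1.88 ± 0.45, adjusted p = 0.021). It was 28.1, 25.3 and 28.7 CPM there and 105, 103 and 92.7 in WT secretin. Relative to Ptprc, the summed level of the 10 genes was 71.2%, 72.1% and 61.8% in dnTGFB secretin. In WT secretin it was 29.1%, 30.7% and 36.9%, so for this sum the order of the 2 groups is the opposite of that in CPM. By gene, Prf1 was lower by more than Ptprc (-2.62 ± 0.86) and Cd4 by about as much (-1.75 ± 0.45). The others ranged from -1.52 to 0.02. The share of the summed level was 207%, 231% and 120% in dnTGFB and 122%, 17.4% and 16.9% in WT. The 120% of dnTGFB library 3 rests on 12 counts of the 10 genes. In the same comparison 5 of 6 B cell markers were lower and 6 of 8 bile duct markers higher (sum 4710 to 4800 against 2280 to 2320 CPM); their part in these results was not tested.

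In male WT mice more list genes were called higher than lower with secretin (3.55% of all genes higher, 2.67% lower). The secretin-treated mice were also older, and their libraries carried Xist. Higher genes were 3 of 14 in the NK list (Fcgr3, an Fc receptor shared with macrophages, 1.32 ± 0.18, and Eomes 2.73 ± 0.50), 2 of 8 inhibitory receptors (Havcr2 2.84 ± 0.46, Pdcd1 3.56 ± 0.92), 3 of 10 homing genes (Itgae 3.00 ± 0.51, Itgal 1.14 ± 0.26), 1 of 13 granule genes (Lyst 1.05 ± 0.24) and 1 of 20 receptor genes (Ubash3a 3.61 ± 0.89). In the type 1 list 1 of 18 was higher (Il18r1 2.15 ± 0.35) and 3 lower, led by Cxcl10 (-3.77 ± 0.51). Pdcd1 was 2.54, 2.75 and 2.94 CPM with secretin and 0.0469, 0.383 and 0.242 without. In the same comparison 6 of 6 B cell markers (sum 91.4 to 97.6 against 177 to 326 CPM) and 6 of 6 platelet markers (15.8 to 22.3 against 171 to 295) were lower, with none at 0, and 3 of 6 dendritic cell markers were higher. Their part in the list counts was not tested.

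In male dnTGFB mice more list genes were called lower than higher with secretin, where 12.4% of all genes were lower and 10.1% higher. Lower genes were 7 of 20 in the receptor list (Cd6 -3.43 ± 0.72, Skap1 -2.62 ± 0.61), 3 of 11 in the helper list (Cd40lg -3.53 ± 0.90, Il2ra -2.39 ± 0.61), 2 of 18 in the type 1 list (Cxcr3 -3.17 ± 0.62) and 1 of 10 in the homing list (Cxcr6 -3.04 ± 0.66). The granule and NK lists had 2 lower and 1 higher gene each, the NK list with Il2rb at -2.03 ± 0.57 and Fcgr3 at 1.41 ± 0.19. All 8 bile duct markers were higher (Krt19 2.24 ± 0.29, Epcam 2.61 ± 0.24; sum 4710 to 4800 against 583 to 868 CPM) and all 6 neuron markers lower. Macrophage markers were higher in 6 of 7 (557 to 585 against 115 to 201 CPM) and hepatocyte markers lower in 3 of 7 (2720 to 2760 against 2510 to 18300 CPM). Mitochondrial counts were 5.5%, 5.31% and 5.66% of the total with secretin and 55.1%, 55.0% and 11.4% without. The part of these differences in the lower T cell genes was not tested.

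The list counts rose without male WT library 1 and dnTGFB library 3. In dnTGFB against WT, 14 of 20 receptor genes, 11 of 14 NK genes, 9 of 18 type 1 genes and 6 of 13 granule genes were then higher, and 1, 0, 4 and 4 lower. In dnTGFB secretin against dnTGFB, 15 of 20 receptor genes were lower and 0 higher, and of the NK genes 7 were lower and 1 higher. In the same refit 22.3% of all genes were higher in the first comparison and 23.5% lower in the second.

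In female mice no difference in the 10 genes passed the test, nor did any of the 19882 genes tested in the 4 pairwise comparisons (0.0% called). Gzmb was at 8.53, 2.49 and 13.3 CPM in dnTGFB libraries 1 to 3, against 10, 0.64 and 31.1 in the WT libraries, while with secretin it was at 16.8, 0.545 and 0.659 for WT and 0.502, 49.2 and 28.4 for dnTGFB. Gzma was at 7.93, 1.48 and 6.53 CPM in dnTGFB libraries 1 to 3, against 5.19, 0.8 and 40 in the WT libraries, while with secretin it was at 24.8, 0.722 and 0.477 for WT and 0.921, 68.6 and 35.9 for dnTGFB. The low values were those of WT library 2 and dnTGFB secretin library 1, which resemble each other, and of the 2 WT secretin libraries with Ddx3y. At an unadjusted p under 0.05 there were 0 of the 10 genes in any of these comparisons, and DESeq2 called 0 of the 10. Of all 19882 genes DESeq2 called 644 higher and 138 lower for dnTGFB against WT, and 398 and 998 between the secretin groups. For WT secretin against WT it called 1728 higher and 926 lower, and for dnTGFB secretin against dnTGFB 108 and 329.

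Prf1 and Cd8a were low in the same female libraries. Prf1 was at 0.588, 0.18 and 0.902 CPM in dnTGFB libraries 1 to 3, against 0.805, 0 and 2.21 in the WT libraries, while with secretin it was at 1.54, 0.0884 and 0.0227 for WT and 0.167, 2.56 and 1.78 for dnTGFB. Cd8a was at 1.6, 1.27 and 4.35 CPM in dnTGFB libraries 1 to 3, against 2.32, 0.32 and 2.4 in the WT libraries, while with secretin it was at 3.88, 0.692 and 0.386 for WT and 0.418, 4.28 and 2.96 for dnTGFB. The range of the remaining genes over the 12 female libraries was 0 to 6.45 for Cd3d, 0.32 to 3.73 for Cd3e, 0.628 to 3.93 for Cd4, 0.265 to 15.1 for Nkg7, 0 to 3.63 for Ifng and 0.16 to 2.71 for Tbx21. The ratio of granule to CD3 counts was highest in WT library 3 (17.8) and dnTGFB secretin library 2 (13.3) and lowest in WT secretin libraries 2 and 3 (1.51 and 1.58).

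The female medians depended on which libraries were kept. The median log2 fold change of the 10 genes for dnTGFB secretin against WT secretin was 1.35 with all libraries. It was 0.04 without the 4 libraries that go against their sex label, and 4.25 without the 4 that match a library of another group, with 0 called in each case. Some groups then rest on 1 library, whose spread is taken to be that of the others. Without WT secretin library 1 alone, Nkg7 was called for that comparison (4.11, adjusted p = 0.0492; 7.96% of all genes higher). For the female interaction none of the 10 genes was called, where 4.03% of all genes were higher and 13.9% lower; without WT secretin library 1 it was called for Gzma (7.38) and Nkg7 (5.03), where 15.5% were higher. In these refits the WT secretin group consists wholly of libraries 2 and 3, with Ddx3y at 98.5 and 77.9 CPM and heart muscle markers at 67600 and 69100 CPM.

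The difference between sexes in the genotype effect did not pass the test for any of the 10 genes. For dnTGFB against WT, females minus males, 2.42% of 20222 genes were called higher and 4.45% lower, and the median of the 10 genes was -1.37. For dnTGFB secretin against WT secretin 0.188% were called higher and 0.00989% lower, and the median was 2.14. At an unadjusted p under 0.05 there were 0 and 1 of the 10 genes. Without the female libraries that match another group 5 of the 10 were called higher under secretin (1.81% of all genes): Cd3d, Gzma, Prf1, Nkg7 and Ifng. Without female WT secretin library 1 alone 3 were called (8.1%): Gzma, Prf1 and Nkg7. In both refits the female WT secretin group is wholly libraries 2 and 3, which carry Ddx3y and heart muscle transcripts, and in the first the female dnTGFB secretin group is library 2 alone. Without the 4 libraries that carry Ddx3y at male levels none of the 10 was called and the median was 0.92.

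The 10 genes moved together across libraries. Over the 45 pairs of genes, Spearman's rho was 0.56 to 0.94 (median 0.81) in the 12 male libraries and 0.69 to 0.99 (median 0.92) in the 12 female libraries. Of 16274 other protein-coding genes, those most like the mean of the 10 over the 24 libraries were Ctsw, a protease of cytotoxic lymphocytes (rho 0.97), Cd3g, the third CD3 chain (0.96), Thbs1 (0.95), Il2rb, an interleukin-2 receptor chain (0.95), and Adamtsl2 (0.95). Within each sex the rho was 0.95 and 0.97 for Ctsw and 0.99 and 0.87 for Thbs1, in males and females. These correlations are descriptions: libraries described as those of 1 pool are not independent, and depth and composition are common to all genes of a library.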

How the data were processed

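Poly(A) RNA of 24 libraries was sequenced from 500 ng of total RNA each, per the labels' protocols. The authors deposited 1 table of whole-number read counts per gene and library. Aligner, counter and strand setting: not given in the sources used here. Coordinates are those of GRCm38: 48970 of the 49315 identifiers are in GENCODE M21, from which symbols were taken, and 44737 have the same coordinates.

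Counts were tested with edgeR 4.0.16 (R 4.3.3; quasi-likelihood F test, robust, TMM scaling, edgeR's low-count filter by group), with 1 mean per group over the 12 libraries of a sex, or over 24 for sex differences. That left 18777 genes in males, 19882 in females and 20222 in both. Genes with a Benjamini-Hochberg adjusted p under 0.05 were called. The approximate SE is the size of the log2 fold change over the root of F. The script was tested on simulated counts. Libraries were compared by chi-square per gene after thinning to 1400000 counts, for genes whose counts sum to 10 or more. Rank correlations used log2 of CPM plus 0.5.

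The members, lists, naming rule and libraries left out were chosen with earlier results of these data known. All 10 genes are named, and up to 2 genes per list and comparison with the lowest adjusted p under 0.05, plus Ptprc, Krt19, Epcam, Alb and the 5 most similar genes. Xist and Ddx3y were added after the data were seen as a check of the sex labels. Alternatives were DESeq2 1.42.0, other scalings, no filter, a replicate block, only the libraries compared, and leaving out libraries. Replicate numbers were checked for pairing and do not pair the libraries. Values of 1 list gene that the naming rule picks are not reported here.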

Additional observations from a re-analysis of the deposited data

Results flagged for a closer look

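For 2 genes the change with secretin differed between male dnTGFB and male WT mice by a test of the difference itself. The interaction was -2.83 ± 0.65 on the log2 scale for Cd4 (adjusted p = 0.0181, edgeR's quasi-likelihood test) and -4.33 ± 1.18 for Prf1 (adjusted p = 0.0335). Cd4 was higher with secretin in WT (1.81) and lower in dnTGFB (-1.02, not called), and Prf1 was 0.78 (not called) and -3.56. Without 1 library the interaction ranged from -3.34 to -2.37 for Cd4 and from -4.85 to -3.65 for Prf1, with an adjusted p of 0.000599 to 0.059 and 0.000791 to 0.0874. Cd4 was no longer called without WT library 2 or 3, WT secretin library 2, or dnTGFB secretin library 1 or 3. Prf1 was called only without WT library 1, dnTGFB library 2 or dnTGFB library 3.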

How the results depend on the processing

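Direct limits are the depth of male dnTGFB library 3, where 3 counts equal 1.76 CPM, and its heart muscle markers, at 11300 CPM. Others are the single pool described for each group, and the libraries that stand apart or go against their sex label. Without male WT library 1 and dnTGFB library 3, all 10 genes were called higher for dnTGFB against WT (22.3% of all genes). For WT secretin against WT 7 were called higher (19.9%). Called lower were 5 for dnTGFB secretin against WT secretin (25.7%), 10 for dnTGFB secretin against dnTGFB (23.5%) and 10 for the interaction (23.8%). In that refit Tbx21 turned to 0.97 for dnTGFB against WT, and Gzma to 1.24 and Gzmb to 2.68 for WT secretin against WT. DESeq2 called 1, 3 and 4 genes for male dnTGFB against WT, dnTGFB secretin against WT secretin and dnTGFB secretin against dnTGFB. For the last of these, library totals, no low-count filter and the replicate block each gave 1, and a fit of only the libraries compared gave 0, with 9 of the 10 genes tested. For dnTGFB secretin against WT secretin, only the libraries compared gave 7. The replicate block gave 0 for WT secretin against WT, where Cd4 was lost. The sex difference under secretin gave 5 without the female libraries that match another group. The causes were not tested, except that leaving out libraries leaves fewer samples.

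Leaving out 1 library gave 0 to 6 calls for male dnTGFB against WT, 0 to 0 for dnTGFB secretin against WT secretin, 0 to 1 for WT secretin against WT, and 0 to 7 both for dnTGFB secretin against dnTGFB and for the interaction. It gave 0 to 1 for female dnTGFB secretin against WT secretin, 0 to 2 for the female interaction and 0 to 3 for the sex difference under secretin. Calls over all genes, in the direction of those of the 10, moved in the same refits. Of 19400 to 19670 male genes, 697 to 2843 were higher for dnTGFB against WT and 221 to 667 for WT secretin against WT. Lower were 506 to 668 between the secretin groups, 321 to 3570 for dnTGFB secretin against dnTGFB and 456 to 3361 for the interaction. Higher in females were 0 to 1688 and 0 to 3278, and 1 to 1726 for the sex difference. Library totals moved the median log2 fold change of all male genes to -0.44 for dnTGFB against WT and 0.75 for dnTGFB secretin against dnTGFB; the 10 genes then had medians of 0.67 and -0.63. For WT secretin against WT, Gzmb (0.34), Ifng (0.26) and Tbx21 (0.21), none of them called, moved from below to above 0 with library totals. Same-numbered libraries correlated above 0.1 in 2 of 18 male and 5 of 18 female pairs, so the block rests on a shared number alone.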
